A study of Mus musculus with 2 samples.

Results

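The synaptic vesicle and release machinery was examined as 47 named genes out of the 45578 genes of a ribosome footprint table from neonatal mouse brain. The genes encode SNARE proteins, synaptotagmins, synapsins and other vesicle proteins, active zone scaffolds and endocytosis proteins. They were named by symbol, the transcript with the most counts over both libraries stood for each gene, and all 47 were matched. Whole brains were taken at postnatal day 5 from the control animals of a colony (the Taiwanese strain, on an FVB background) that models spinal muscular atrophy. Their genotype was Smn+/-; SMN2tg/0, so that the controls themselves lacked a copy of mouse Smn and carried the human SMN2 transgene, and no wild-type group was analysed here. RiboLace uses beads to pull down ribosomes that are engaged in translation, and the 25 to 35 nucleotide fragments that these ribosomes protect from nuclease are sequenced. There were 2 biological replicates of 1 group, and the labels do not say clearly whether each came from its own animal, so p-values between them measure only the spread between these 2 libraries.

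A synaptic vesicle fuses when the vesicle SNARE synaptobrevin zips together with the plasma membrane SNAREs syntaxin and SNAP-25. Complexins hold the partly assembled complex, and synaptotagmins trigger fusion when they bind calcium. Active zone scaffolds dock and prime vesicles at the release site, clathrin, its adaptors and dynamin retrieve the membrane afterwards, and the ATPase NSF with its SNAP adaptors takes the SNAREs apart for reuse. In the first postnatal week of rodents most synapses are still to be formed, while axons already carry vesicle proteins.

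Gene counts summed to 343552 in replicate 1 and 120282 in replicate 2, and 1 count was worth 2.71 and 8.93 CPM, the count scaled to a common library size by the TMM method. Levels are given as footprint density, the CPM per kb of coding sequence, because genes differ in length. The part of gene counts on protein-coding genes was 81.4% in replicate 1 and 73.1% in replicate 2. The 7 neuronal markers (among them Tubb3, Stmn2 and Gap43) were all detected and held 0.730% and 0.732% of counts. Markers of the other cells in whole brain were also present: astrocytes and radial glia held 0.298% and 0.292%, the oligodendrocyte lineage 0.059% and 0.056%, microglia 0.017% and 0.014%, endothelium 0.016% and 0.019%, and erythroid cells 0.410% and 0.385%. In such bulk tissue, fewer cells of a type and less RNA per cell cannot be told apart.

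Of the 47 genes, 43 had a mean of at least 10 counts over the libraries, the minimum used for testing. The 4 below it were Vamp3, Vamp4, Stx6 and Synpr. The genes together held 3637 counts in replicate 1 and 1113 in replicate 2. Their share of all gene counts was 1.06% (Wilson 95% limits 1.02 and 1.09) and 0.925% (0.873 and 0.981), which do not overlap, or 0.992% ± 0.094 (SD, n = 2). Relative to protein-coding genes alone the shares were 1.30% (1.26 to 1.34) and 1.27% (1.19 to 1.34), with overlapping intervals. These and the other intervals given here cover counting error only. PCR copies of a molecule were not told apart, so the intervals may be too narrow even for that.

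Densities of the 43 genes spanned 98.0-fold, from Vamp2, the main synaptobrevin of central neurons, down to Pclo, the giant active zone scaffold piccolo. Their median was 161 CPM per kb, beside 62.3 for the 4294 protein-coding genes with the same minimum count and a coding length, and the median of all 47 was 119. Of the 43, 30 lay above the median of the coding genes, 23 in the top 25% and 5 in the top 10%. That comparison turned with the count minimum: at a mean of at least 50 counts, the 17 remaining genes had a median of 255 CPM per kb against 313 for the coding genes. The 5 densest genes, Vamp2, Cplx2, Syp, Snap25 and Cplx1, were the top 5 in each library separately. This set depended on the processing. Per whole transcript length the top 5 were Syp, Snap47, Snap25, Clta and Vamp2, with Cplx1 at rank 17 and Cplx2 at rank 20. With the isoforms of a gene summed they were Vamp2, Syp, Clta, Snap25 and Ap2m1.

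**Figure D1:**
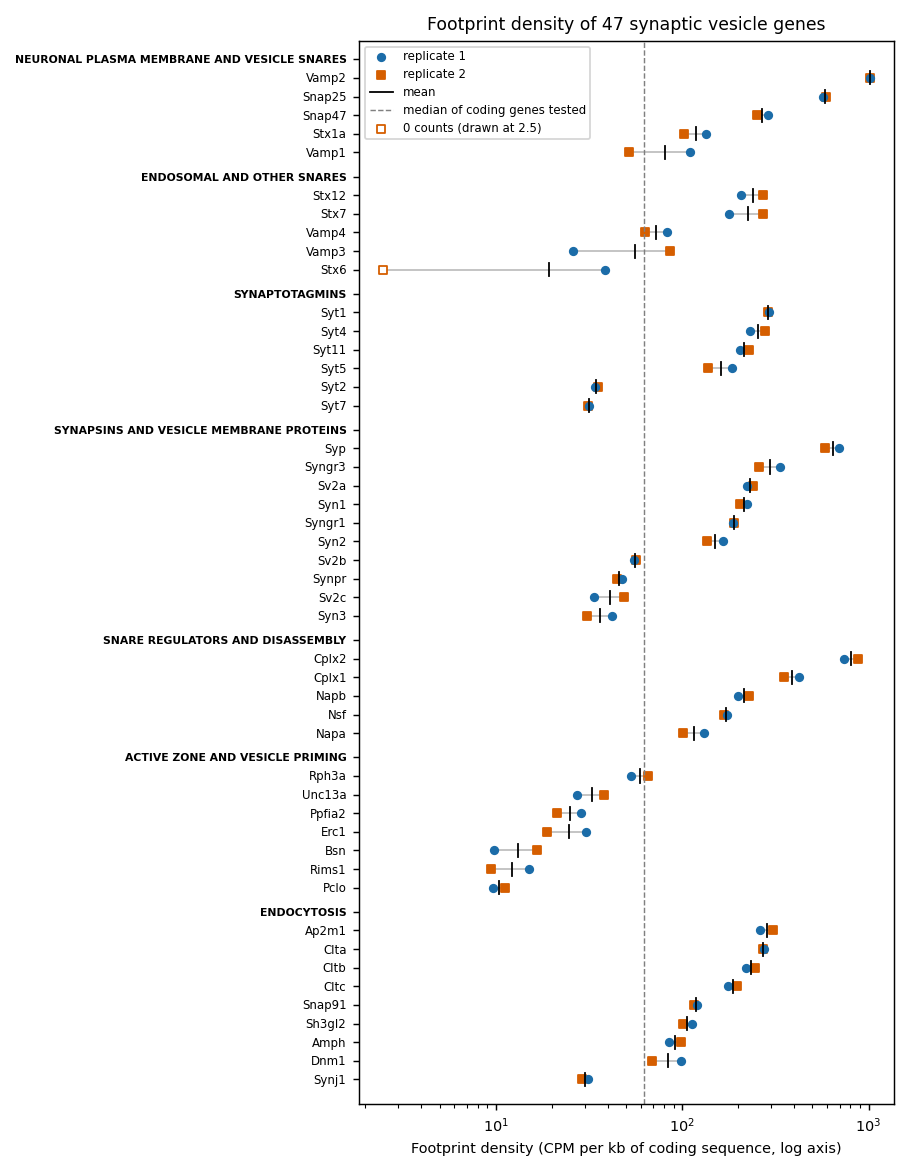
Footprint density of the 47 genes by role, with density on a log axis in CPM per kb of coding sequence. Circles are replicate 1, squares replicate 2, and the upright bar their mean; the dashed line is the median of the coding genes tested, at 62.3. Vamp2, Cplx2, Syp and Snap25 stand furthest right, the means of the 7 active zone genes lie left of the line, and Stx6 had no count in replicate 2.

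The libraries did not differ detectably in any of these genes. In a 2-sided exact binomial test with Benjamini-Hochberg adjustment over all 5436 genes tested, 0 of the 43 passed an adjusted p of 0.05, where 4.14% of all genes and 0.956% of protein-coding genes did. None of the 43 had an unadjusted exact binomial p under 0.05 either, against 9.6% of all genes and 5.62% of protein-coding genes. In edgeR's exact test at a preset coefficient of variation of 0.2, 0 of the 43 passed, beside 2.41% of all genes and 0.182% of protein-coding genes. The lowest p belonged to Bsn, which encodes the scaffold bassoon (43 and 22 counts, unadjusted exact binomial p = 0.055, adjusted p = 0.553). The log2 ratios of replicate 2 over replicate 1 ran from -1.06 for Vamp1 to 0.75 for Bsn, with a median of -0.0096 beside -0.016 for the coding genes tested. On this scale, log2(CPM + 1), 20 genes were higher and 23 lower in replicate 2. Across the 43 genes abundance in the libraries had a Pearson r of 0.948, a description over genes that share each library. In 7 of the 43, replicate 2 held fewer than 10 counts, so a difference in a single gene of this kind had to be large to be detectable.

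**Figure D2:**
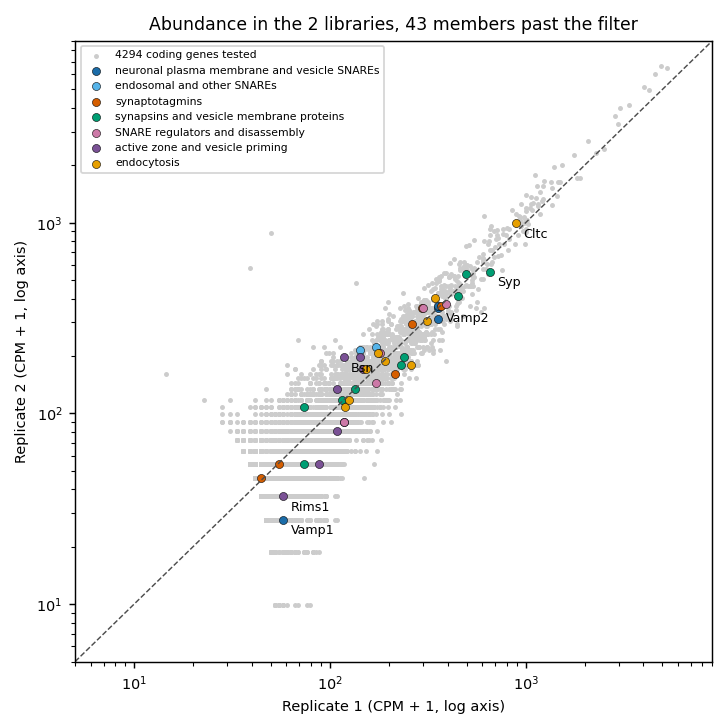
Abundance in replicate 1 (x axis) and replicate 2 (y axis), both as CPM + 1 on log axes, for 4294 coding genes (grey) and the 43 genes past the count minimum (coloured by role); the dashed line marks equal values. The coloured points follow the dashed line from Cltc at the upper end to Vamp1 and Rims1 at the lower end, where replicate 2 has only a few counts per gene and the grey points form rows.

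The neuronal SNAREs of the fusion complex held the highest density of the whole set. Vamp2 (ENSMUSG00000020894), whose RefSeq span in GRCm38.p6 is chromosome 11, 69088528 to 69092381, had 132 and 40 counts on a coding sequence of 351 nucleotides. Its density was 1019 CPM per kb in replicate 1 and 1018 in replicate 2, or 1018 ± 1.06 (SD, n = 2). The counting intervals of these densities, 853 to 1209 and 727 to 1386, were far wider than this spread, so the close match is not a measure of precision. Snap25, the plasma membrane SNARE that contributes a pair of helices (chromosome 2, 136713439 to 136782428), had 131 and 41 counts and 572 and 590 CPM per kb, or 581 ± 12.7 (SD, n = 2). Stx1a, a syntaxin that anchors the complex in the plasma membrane, was lower, at 134 and 103 CPM per kb from 43 and 10 counts. Snap47, a SNAP-25 relative found on internal membranes as well, had 288 and 252 CPM per kb. Vamp1, the synaptobrevin best known from spinal cord and brainstem, had only 21 and 3 counts, and 110 and 51.9 CPM per kb. Per coding length, Vamp2 and Snap25 thus held the same order in both libraries, well above the other members of this group. Per whole transcript length Snap47 (177 CPM per kb) was above Snap25 (170) and Vamp2 (162).

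Of the endosomal SNAREs, only the syntaxins Stx12 and Stx7 passed the count minimum. Stx12 (207 and 271 CPM per kb) and Stx7 (179 and 273), which act at early and late endosomes, were each higher in replicate 2, without passing the test (exact binomial adjusted p = 0.903 and 0.711). Vamp4, a SNARE of the trans-Golgi network, had 13 and 3 counts. Vamp3, the synaptobrevin called cellubrevin that most non-neuronal cells use, had 3 and 3. Stx6, a Golgi and endosome syntaxin, had 11 counts in replicate 1 and 0 in replicate 2, where a count of 0 allows a share of up to 0.0025% of counts. These 3 genes were too shallow for their levels to be compared.

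Synaptotagmins fell into an upper set of 4 genes and a lower pair. Syt1, the calcium sensor of fast release in forebrain (chromosome 10), had 136 and 41 counts and 291 and 289 CPM per kb. Syt4 had 231 and 279 CPM per kb, and Syt11 203 and 228; both belong to the synaptotagmins that lack a residue needed for calcium binding in the first C2 domain. Syt5, a further calcium-binding member, had 184 and 138 CPM per kb. Syt2, the fast sensor of hindbrain and spinal synapses, stood at 34.2 and 35.2 CPM per kb from 16 and 5 counts, and Syt7, a sensor of slow and asynchronous release, at 31.8 and 31.4 from 20 and 6 counts. In each library the lowest of the upper set was well above the highest of the lower pair.

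Vesicle membrane proteins were led by Syp, the membrane-spanning synaptophysin (X chromosome), which had 243 and 62 counts and 697 and 586 CPM per kb, or 641 ± 78.5 (SD, n = 2). Syp and Snap25 changed places between the libraries, so their order is not resolved. Syngr3 and Syngr1, the synaptogyrins, had 334 and 259 and then 188 and 190 CPM per kb. Sv2a, the vesicle glycoprotein bound by the drug levetiracetam, had 222 and 240 CPM per kb, while Sv2b had 55.5 and 56.6 and Sv2c 33.5 and 49.1. The synapsins, which tether vesicles to each other and to actin, were ordered Syn1 (223 and 204 CPM per kb), Syn2 (166 and 136) and Syn3 (42.1 and 30.8) in both libraries. Synpr, the synaptophysin relative synaptoporin, had 14 and 4 counts. The share of gene counts on this group was 0.269% (Wilson limits 0.252 and 0.287) against 0.216% (0.191 and 0.244), the one role group whose limits did not overlap between the libraries. Among protein-coding counts it was 0.331% (0.310 and 0.353) against 0.296% (0.262 and 0.334), which do overlap.

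Among SNARE regulators, complexins were the densest per coding length and the disassembly factors lower. Per whole transcript length that order turned for Nsf (102 CPM per kb), which was above Cplx1 (71.6) and Cplx2 (66.5). Napb (43.5) and Napa (40.9) stayed below both complexins. Cplx2 (chromosome 13) had 110 and 40 counts and 736 and 882 CPM per kb, or 809 ± 103 (SD, n = 2). Cplx1 (chromosome 5) had 63 and 16 counts and 422 and 353 CPM per kb, or 387 ± 48.6 (SD, n = 2). The lower Cplx2 value was above both Cplx1 values. Nsf, the ATPase, had 144 and 42 counts and 175 and 168 CPM per kb. Its adaptors Napb (beta-SNAP, the brain form) and Napa (alpha-SNAP, present in all tissues) had 199 and 229 and then 131 and 101 CPM per kb. Summed, the 2 adaptors stood at 331 and 330 CPM per kb.

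The 7 active zone and priming genes had the lowest densities of any role group, with a median of 24.6 CPM per kb and a median coding length of 3783 nucleotides. Rph3a, rabphilin, a Rab3 effector, was the densest at 53.0 and 65.5 CPM per kb. Unc13a, the priming factor Munc13-1, had 52 and 22 counts and 27.4 and 38.2 CPM per kb. Ppfia2 (liprin-alpha-2) had 28.7 and 21.3, and Erc1 (ELKS) 30.5 and 18.8 CPM per kb. For Erc1 the transcript with the most counts carries the nonsense-mediated decay biotype (32 and 6 counts), and its 4 near full-length coding transcripts had 23 to 31 and 4 to 8. Bsn had 9.85 and 16.6, Rims1, the docking scaffold RIM1, 15.0 and 9.44, and Pclo 9.62 and 11.2 CPM per kb. In counts these scaffolds were not rare: Pclo had 54 and 19 and Bsn 43 and 22, spread over coding sequences of 15207 and 11829 nucleotides.

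Endocytosis genes took 0.276% (Wilson limits 0.259 and 0.294) and 0.248% (0.221 and 0.277) of gene counts, with limits that overlapped those of the vesicle membrane group in each library. Cltc, the clathrin heavy chain (chromosome 11, 86694352 to 86757567), had the most counts of all 47 genes, 329 and 111, on a coding sequence of 5040 nucleotides. Its density was 177 and 197 CPM per kb, or 187 ± 14.0 (SD, n = 2). The light chains Clta (274 and 271 CPM per kb) and Cltb (220 and 246) were denser. Ap2m1, the cargo-binding subunit of the clathrin adaptor AP2, had 263 and 307 CPM per kb. Snap91, the neuronal clathrin assembly protein AP180, had 120 and 116, and Sh3gl2, the curvature protein endophilin A1, had 113 and 101. Amph (amphiphysin) had 85.0 and 99.1, Dnm1, the neuronal dynamin that cuts vesicles free, 99.2 and 68.8, and Synj1, the lipid phosphatase that strips the coat, 31.4 and 29.2 CPM per kb. Of these 9 genes, the clathrin chains, Ap2m1 and Snap91 lay above Dnm1 and Synj1 in both libraries; with isoforms summed, Dnm1 (408 CPM per kb) was above Cltc (210), Cltb (314) and Snap91 (268). Clathrin, AP2 and several SNAREs of this set are used by every cell type, and how much of their signal came from non-neuronal cells was not tested.

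Ratios between relatives or partners were compared within each library for 19 pairs named in the design, as ratios of density with exact 95% intervals of the counts. In all 19 the libraries gave the same direction and their intervals overlapped, and in 12 the interval excluded a ratio of 1 in both. Vamp2 exceeded Vamp1 by 9.24-fold (5.80 to 15.4) in replicate 1 and 19.6-fold (6.24 to 99.0) in replicate 2. It exceeded Vamp3 by 39.1-fold (13.1 to 192) and 11.9-fold (3.77 to 59.9), ratios that rest on 3 counts of Vamp3 in each library. Syp exceeded Synpr by 14.7-fold (8.57 to 27.2) and 13.1-fold (4.86 to 49.5). Syt1 exceeded Syt2 by 8.52-fold (5.06 to 15.3) and 8.22-fold (3.25 to 26.7). Each of the dominant forms, Vamp2, Syp and Syt1, was among the denser genes of its role group.

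Sv2a exceeded Sv2b by 4.01-fold (2.86 to 5.75) and 4.25-fold (2.31 to 8.44), and Sv2c by 6.64-fold (4.42 to 10.4) and 4.90-fold (2.61 to 10.01). Syn1 exceeded Syn3 by 5.31-fold (3.52 to 8.31) and 6.63-fold (2.82 to 19.0). Against Syn2, Syn1 was 1.35-fold (1.04 to 1.77) and 1.50-fold (0.882 to 2.61), so that replicate 2 alone did not separate them. Dnm1 exceeded the ubiquitous Dnm2 by 8.70-fold (4.65 to 18.0) and 4.03-fold (1.47 to 13.7), while Dnm1 to Dnm3, the other brain form, was 1.85 (1.30 to 2.66) and 2.21 (0.962 to 5.51). Each pair here names the relative with the higher density first.

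In other pairs the relative named second was higher. Cplx1 to Cplx2 was 0.573 (0.413 to 0.788) and 0.400 (0.209 to 0.730), with equal coding lengths (405 nucleotides). Napa to Napb was 0.658 (0.437 to 0.981) and 0.439 (0.187 to 0.959). Cltc to the sum of both light chains was 0.358 (0.291 to 0.444) and 0.381 (0.263 to 0.561). The assembled clathrin triskelion holds heavy and light chains in equal number, but whether protein amounts follow these ratios was not tested. Coding lengths differ, at 5040 nucleotides for Cltc, 693 for Clta and 690 for Cltb. Among tested genes of similar coding length the order was the other way, with Cltc at percentile 100, Clta at 83.9 and Cltb at 78.3.

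In 5 of the remaining 6 pairs, at least 1 library did not separate the genes. Syt4 to Syt11 was 1.14 (0.857 to 1.51) and 1.23 (0.754 to 2.01), Clta to Cltb 1.24 (0.863 to 1.80) and 1.10 (0.563 to 2.16), and Bsn to Pclo 1.02 (0.669 to 1.56) and 1.49 (0.769 to 2.91). Snap91 to its ubiquitous relative Picalm was 1.46 (1.06 to 2.03) and 1.36 (0.755 to 2.53), and Syngr1 to Syngr3 0.564 (0.389 to 0.811) and 0.734 (0.350 to 1.51). The exception was Snap25 to Snap47, at 1.98 (1.55 to 2.55) and 2.34 (1.46 to 3.79), a ratio above 1 in both libraries. That last ratio and the complexin ratio turned when counts were divided by the whole transcript length. The mean log2 ratio of Snap25 to Snap47 went from 1.11 to -0.050, and that of Cplx1 to Cplx2 from -1.06 to 0.11, since Cplx2 has a 3' untranslated region of 4208 nucleotides and Cplx1 of 1575.

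**Figure D3:**
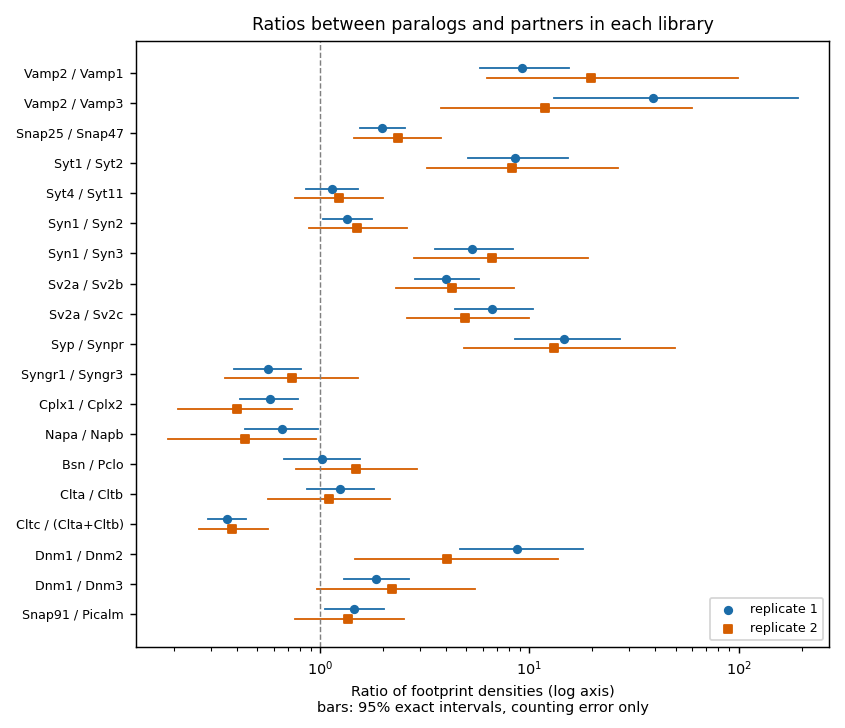
Ratio of footprint densities (log axis) for 19 pairs of relatives or partners, with replicate 1 as circles and replicate 2 as squares. Bars are 95% exact intervals that cover counting error only, and the dashed line marks a ratio of 1. Vamp2 over Vamp1 and Vamp3, Syp over Synpr and Syt1 over Syt2 lie furthest right, and Cltc over its light chains lies furthest left in both libraries.

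Some transcripts of these genes share a coding length and differ in untranslated length, so their total counts can be compared. Where in a transcript the fragments lay was not analysed, so these totals do not decide which length to divide by. The 2 coding transcripts of Snap25 share a coding length of 621 nucleotides, and the longer one has 1077 nucleotides more of 3' untranslated region. It had 131 and 41 counts and the shorter one 119 and 42, a difference of 12 in replicate 1 and -1 in replicate 2. At the density of the coding sequence the extra length would have held 206 and 72.8. Dnm1 offered 5 pairs, with 561 to 1824 nucleotides more of 3' untranslated region. Their differences, longer minus shorter, were 6 to 13 counts in replicate 1, where the coding density would give 17.9 to 58.5. In replicate 2 they were -4 to 0, where it would give 4.38 to 11.4. The closest of these pairs differed by 13 counts against 17.9. For Clta, 630 extra nucleotides of 5' untranslated region went with 61 against 69 counts and 22 against 20. In each of these pairs the difference in counts was below what the coding density would give. How fragments that match both transcripts were assigned is not given, and whether their coding sequences were identical was not examined. Such pairs in Stx6 and Vamp4 had too few counts to compare. No such pair of transcripts was available for Vamp2 or Cplx2, whose coding sequence is 15.9% and 8.22% of the transcript.

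Differences between splice forms could not be read from the table. The 47 genes had 242 transcripts, and how fragments that match several of them were assigned is not given in the sources used here. The 8 near full-length coding transcripts of Dnm1 had 81 to 95 counts in replicate 1 and 16 to 23 in replicate 2. A Snap91 transcript with a coding length of 2706 nucleotides had 125 counts in replicate 1 and 19 in replicate 2, and one with 2607 nucleotides had 115 and 34, an order that changed between the libraries. Transcripts annotated as retained introns also carried counts, up to 136 and 42 for Syp and 69 and 22 for Vamp2. How much of these lay on exons shared with the coding transcripts was not tested.

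Density fell with coding length, among these genes as among all. Over the 43 genes the Spearman rho between density and coding length was -0.73, and over the 4294 coding genes it was -0.78. Both are descriptions across genes of the same libraries. The minimum of 10 counts itself sets a floor on density that is higher for short genes, and rho was -0.57 over the 10446 coding genes with a count in each library. Abundance in CPM, not divided by length, had a rho of -0.087 with coding length in the 43 genes. Each gene was therefore also placed among the tested coding genes with 0.8 to 1.25 times its coding length.

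On that scale, 36 of the 43 lay above the median of genes of similar length and 13 above the 90th percentile. Cltc was the densest of 263 genes of its length. Syp stood at percentile 97.6 of 745 genes, Sv2a at 97.0 of 797, Nsf at 95.4 of 802, Syn1 at 95.1 of 816 and Vamp2 at 93.8 of 308. Unc13a, low by density alone, stood at percentile 85.4 of 254 genes, and Bsn at 75.8 of 33. Pclo was near the middle, at 47.6 of 21. The lowest were Syt2 at 10.4, Vamp1 at 11.9, Rims1 at 13.2 and Syt7 at 23.5. The mean counts of Syt2, Vamp1, Rims1 and Syt7 were close to the minimum of 10, and genes with fewer counts were left out of the comparison. Their low percentiles therefore cannot decide whether they were low for their length. Vamp2 and Syt1 (percentile 94.4), the relatives of Vamp1 and Syt2, were high among tested genes of similar length. A contrast between brain regions was not tested.

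**Figure D4:**
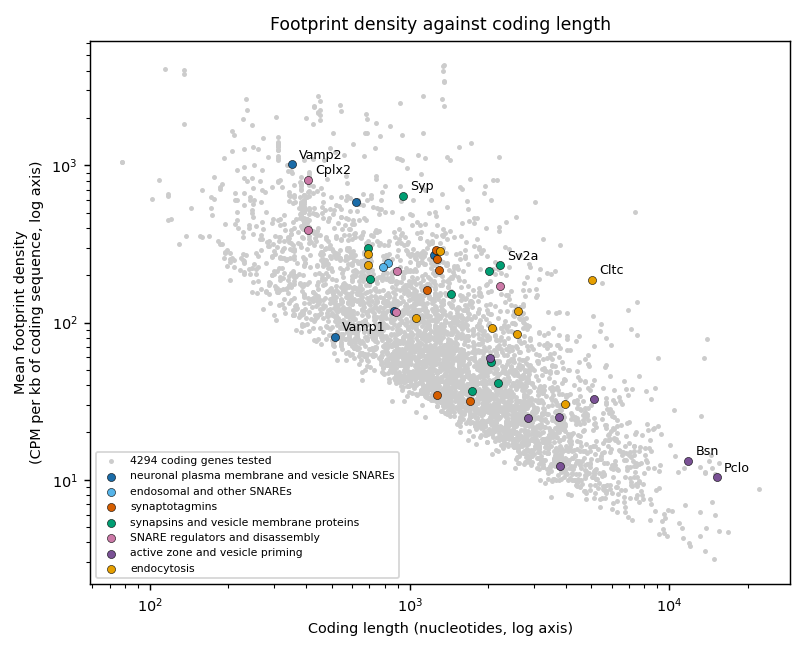
Mean footprint density (y axis, CPM per kb, log) against coding length (x axis, nucleotides, log) for 4294 coding genes tested (grey) and the 43 genes past the count minimum (coloured by role). Density falls with length in both, with a lower edge set by the count minimum. Cltc, Syp and Sv2a lie at the upper edge for their length, and Vamp1, Syt2 and Rims1 near the lower edge.

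The other genes of the pathway were taken from a list of 73 symbols, of which 72 were matched. Of these, 35 had a mean of at least 10 counts and 0 passed the exact binomial test after adjustment, beside the 0.956% of protein-coding genes. Of the 35, 1 had an unadjusted p under 0.05 in that test, beside 5.62% of protein-coding genes. That gene was Scamp5, a secretory carrier membrane protein (73 and 35 counts, exact binomial p = 0.030, adjusted p = 0.391). The densest of the list was Rab3a, the GTPase that marks vesicles for docking, at 605 and 512 CPM per kb. It was followed by Ap2s1, the small AP2 subunit (385 and 354), Scamp5 (279 and 441), Dnajc5, the vesicle chaperone cysteine string protein (281 and 284), and Rab3c, a relative of Rab3a (229.8 and 274). Rab3a was above Snap25 in replicate 1 and below it in replicate 2, so their order is not resolved. Of the large AP2 subunits, singled out after their values were seen, Ap2b1 had 108 and 85.2 CPM per kb, and the alpha forms Ap2a1 and Ap2a2 summed to 165 and 168, beside 263 and 307 for Ap2m1. The assembled adaptor holds a single copy of each kind of subunit, and its shorter subunits were the denser ones in both libraries.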

How the data were processed

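Footprints were counted per transcript in 2 RiboLace libraries. The deposited values are whole-number counts, not normalised, per the file headers and values. Trimmomatic 0.36, Bowtie2 2.2.6, SAMtools and build GRCm38.p4 are named in the submitters' processing notes; the counting tool, the annotation release and the handling of reads that match several transcripts are not given in the sources used here. The column sums over all transcripts were 729027 and 225075, above the gene totals, in which 1 transcript stands for each gene. The lengths of coding and untranslated regions are the authors' deposited values per the file headers.

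The members, gene lists, pairs and tests were chosen with earlier results of these data known. Per gene, the transcript with the highest summed count was used, the longer one in a tie. CPM used effective library sizes from edgeR 4.0.16 (TMM factors 1.07 and 0.931, minimum mean count 10). Log2 ratios used a pseudocount of 1 CPM. Exact binomial tests with Benjamini-Hochberg adjustment at 0.05 (SciPy 1.17.1) compared the counts of the 2 libraries, not conditions, over all genes tested; the script was tested on simulated data. Shares carry Wilson intervals, pair ratios Clopper-Pearson intervals and densities Poisson intervals, all at 95%. Genes were named by a rule: all 47 members, the pairs, genes past the test and the 5 densest of the pathway list; a few results of the planned lists and pairs are not reported here. Gene positions are RefSeq spans in GRCm38.p6, whose primary chromosomes share coordinates with the deposited build. Alternatives were another transcript per gene, isoforms summed, other count minimums, library totals, DESeq2 1.42.0 size factors, coding genes alone, a preset coefficient of variation of 0.2 in edgeR's exact test, a pseudocount of 0.1, whole transcript length and each library alone. Positions of footprints within transcripts were not analysed here.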

Additional observations from a re-analysis of the deposited data

How the results depend on the processing

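No paired analysis was possible because the libraries form 1 group. The share of protein-coding counts, for the set, each role group and the neuronal markers, was an alternative chosen after seeing the data. The 43 genes past the count minimum became 17 at a mean of at least 50. The count of 0 differing genes became 2 of 46 with isoforms summed, Snap47 and Stx6. In that setting 605 of all genes tested passed, against 225 (4.14%) in the main one. The number of genes tested with isoforms summed is not given here. The 2 of 46 therefore cannot be set against a share over all genes. Summing may count a fragment more than once, because how fragments that match several transcripts were assigned is not given. Under every other alternative run the count of differing genes stayed at 0. The share of 0.992% became 1.31% with isoforms summed and 1.28% among protein-coding counts. The median density was 161 CPM per kb, beside 62.3 for the coding genes. It became 59.2 (coding genes 27.3) per whole transcript length and 255 (313) at a mean of at least 50. With coding genes alone, which leaves out the other genes by construction, it was 209 (80.7). In replicate 1 alone it was 150.0 (45.4), and in replicate 2 alone 200.4 (121). The median log2 ratio of -0.0096 became 0.049 on the longest coding sequence, 0.12 (0.115) with isoforms summed, -0.19 (-0.195) without a filter, -0.083 at a mean of at least 50, -0.22 (-0.215) with library totals, which lower the median of all genes tested from 0.0041 to -0.20, and 0.0091 with coding genes alone. Where no cause is given here, the cause was not tested.

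Per whole transcript length, the mean log2 ratio of Vamp2 to Vamp1 became 2.54 (from 3.75), Syt1 to Syt2 3.60 (from 3.06), Syt4 to Syt11 0.45 (from 0.24), Syn1 to Syn2 1.23 (from 0.51), Syn1 to Syn3 2.31 (from 2.57), Sv2a to Sv2b 2.51 (from 2.05), Sv2a to Sv2c 3.61 (from 2.51), Syp to Synpr 4.01 (from 3.79), Syngr1 to Syngr3 -1.69 (from -0.64), Napa to Napb -0.10 (from -0.90), Clta to Cltb 0.074 (from 0.23), Cltc to its light chains -1.11 (from -1.44), Dnm1 to Dnm3 1.31 (from 1.02) and Snap91 to Picalm 0.87 (from 0.49). The ratios of Snap25 to Snap47 and Cplx1 to Cplx2 reversed, to -0.050 and 0.11. On the longest coding sequence Dnm1 to Dnm3 became 0.78 and Snap91 to Picalm 0.081; the other 17 pairs moved by less than the spread between the libraries. Single-gene densities moved by more than that spread in 45 of 47 genes per whole transcript length, in 43 with isoforms summed, in 12 on the longest coding sequence and in 1 with library totals. With isoforms summed Dnm1 went from 84.0 to 408 CPM per kb, Clta from 272 to 718 and Erc1 from 24.6 to 89.5, and the orders of Syt4 and Syt11 (128 and 278) and of Bsn and Pclo (8.12 and 15.7) turned. In 7 tested genes replicate 2 held fewer than 10 counts, and its depth limits what can be compared.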
